A study of Mus musculus with 24 samples.

Results

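The 85 genes described here encode the proteins of the cytoplasmic ribosome in mouse cortical neurons, 52 of the large subunit (symbols starting Rpl) and 33 of the small subunit (symbols starting Rps). They were taken by symbol from the protein-coding genes of GENCODE M21, without the S6 kinases (Rps6k), Rps19bp1 and symbols marked as pseudogenes, out of 55177 genes with matched transcripts. RNA was sequenced in 24 libraries of primary neurons grown from mouse cortex of embryonic day 16.5, and each embryo's cortex was treated as a biological replicate by the labels. All cultures, controls included, were silenced overnight with 1 µM tetrodotoxin, a sodium channel blocker, and 100 µM D-AP5, an NMDA receptor blocker. They were then left at rest or depolarized with 50 mM KCl for 30 minutes.

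At 7 days in vitro (DIV7), unedited wild-type neurons given 0.1% DMSO made up 2 libraries at rest and 2 after KCl, prepared from poly(A)-selected RNA. At 18 days (DIV18), 20 libraries in 8 groups came from rRNA-depleted total RNA. Neurons with a non-targeting CRISPR guide (NT) gave 2 libraries at rest and 2 after KCl. The remaining DIV18 neurons carried a guide against Smarcc2, a core subunit of the BAF chromatin remodelling complex, together with an introduced construct. The empty vector gave 3 libraries in each state, and wild-type Smarcc2 gave 2 at rest and 3 after KCl. Smarcc2 with a serine replaced by glutamate (S586E) was measured at rest only (3 libraries), and the form with alanine at the same serine (S586A) after KCl only (2 libraries), so the substituted forms were never measured in the same state. The knockout cultures were edited as populations rather than clones. The poly(A) and rRNA-depleted libraries were never fitted together, and age and library type cannot be told apart.

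A ribosome is built from ribosomal RNA and one copy of most of these proteins, so their genes are usually expressed at high and similar levels. Their mRNAs typically begin with a cytosine followed by a run of pyrimidines, the 5′ terminal oligopyrimidine (TOP) tract, through which the mTOR pathway controls their translation. Neurons translate mRNA in dendrites and axons as well as in the cell body, and ribosomal protein mRNAs are also found there.

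Library totals were 24536056 to 30135576 estimated counts at DIV7 and 14510199 to 24024959 at DIV18. Smarcc2 checked the labels: it lay at 237 to 265 CPM (estimated counts scaled to 1 common library total) in NT at rest, 47.1 to 64.1 in vector at rest, 756 to 816 with wild-type Smarcc2 at rest and 1164 to 1276 with S586E. After KCl it lay at 274 to 283 CPM in NT, 47.6 to 59.96 in vector, 737 to 1089 with wild-type Smarcc2 and 1303 to 1340 with S586A. All 12 neuronal markers were present, with Map2 at 942 CPM or more in every DIV18 library. Glial markers were present too, so these were mixed cultures, and in such bulk samples fewer cells of a type and less RNA per cell cannot be told apart.

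The genes called below differ in the longest pyrimidine run within 30 bases of the annotated start. RefSeq promoter entries (GRCm38.p6) existed for 65 of the 85 genes, with 77 start sites in all. Each line gives 30 bases before and 30 from the annotated start on, 5′ to 3′ on the transcribed strand, with the longest unbroken run of C and T in capitals. The first 7 genes were lower in vector than in NT neurons at rest. Rpl12, Rpl10, Rpl23, Rps13 and Rpl3l, a form known from muscle, were called after KCl at DIV7, and Rpl10a had a retained-intron class that fell there. Rpl10a and Rpl3l have a second entry each, with longest runs of 7 and 4 bases, which is not printed.
Rpl11 (chr4:136053364-136053423, minus strand): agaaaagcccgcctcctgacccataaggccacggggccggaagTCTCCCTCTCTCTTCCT
Rpl13 (chr8:123102320-123102379, plus strand): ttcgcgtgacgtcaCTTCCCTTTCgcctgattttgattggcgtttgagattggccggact
Rpl15 (chr14:18270957-18271016, minus strand): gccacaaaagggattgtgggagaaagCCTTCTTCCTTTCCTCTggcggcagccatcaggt
Rpl18 (chr7:45718041-45718100, plus strand): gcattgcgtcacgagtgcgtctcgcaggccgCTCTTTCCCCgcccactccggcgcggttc
Rpl27 (chr11:101442215-101442274, plus strand): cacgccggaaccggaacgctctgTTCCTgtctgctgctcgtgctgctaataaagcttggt
Rpl31 (chr1:39367821-39367880, plus strand): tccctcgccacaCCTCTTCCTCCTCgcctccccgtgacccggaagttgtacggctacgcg
Rps26 (chr10:128626477-128626536, minus strand): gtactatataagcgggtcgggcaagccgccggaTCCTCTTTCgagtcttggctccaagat
Rpl12 (chr2:32961682-32961741, plus strand): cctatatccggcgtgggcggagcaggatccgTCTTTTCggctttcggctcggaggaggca
Rpl10 (chrX:74270786-74270845, plus strand): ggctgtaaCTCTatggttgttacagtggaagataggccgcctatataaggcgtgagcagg
Rpl23 (chr11:97782410-97782469, minus strand): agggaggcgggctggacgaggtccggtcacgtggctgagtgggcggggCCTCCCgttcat
Rps13 (chr7:116334161-116334220, minus strand): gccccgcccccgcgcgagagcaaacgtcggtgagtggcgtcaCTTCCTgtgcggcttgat
Rpl10a (chr17:28328535-28328594, plus strand): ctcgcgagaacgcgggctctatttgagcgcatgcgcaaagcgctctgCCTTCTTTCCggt
Rpl3l (chr17:24727796-24727855, plus strand): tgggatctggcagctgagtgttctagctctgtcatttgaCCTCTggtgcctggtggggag

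The longest runs were 17 bases, in Rpl11 and Rpl15, and the shortest 4, in Rpl10, while Rpl27 and Rpl3l had 5 each. The Rpl11 run reaches the end of its window. Many runs lay away from the start, beginning at position -16 in Rpl13, -18 in Rpl31, -22 in Rpl10, 18 in Rpl10a and 19 in Rpl23. The Rpl27 window ends at base 101442274, before the GENCODE start of that gene at 101442298. Run lengths are therefore not a measure of the TOP tract. A C/T run of 8 or more bases on the transcribed strand lay within these 60-base windows at 37 of the 77 start sites (48.1%), against 22.9% of all 32851 start sites in the table. On the opposite strand such a run lay at 9 of 77 (11.7%), against 25.9% of all. The letters CCGGAAG, the core bound by ETS factors, were found on either strand of the 300-base promoter at 35.1% of the family's start sites and at 8.86% of all. The letters TATAAA were found at 9.09% and 13.6%. These matches describe the sequence only, and annotated starts may lie some bases from those used in neurons.

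Per transcript length, in TPM (scaled by transcript length and to a common total), the family was highly expressed and uneven. The median gene stood at 534 TPM at DIV7 and 136 TPM at DIV18, and 77 and 57 genes reached 100 TPM. Rplp1, which encodes an acidic protein of the ribosomal stalk, was highest at DIV7 with 1837 ± 44.3 TPM (SD over 4 libraries). Rpl41, which encodes the smallest ribosomal protein, was close behind at 1818 ± 72.4, a gap within their spread. At DIV18 Rpl41 was highest at 957 ± 108 TPM (SD over 20 libraries), followed by Rpl13a at 500 ± 51.5.

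Paralogues, second genes for a ribosomal protein, stood below or above their partners. Rpl36al averaged 373 TPM at DIV7 and 62.8 TPM at DIV18, against 282 and 52.7 TPM for Rpl36a, and was the higher of the pair at DIV7 without overlap. Near-identical copies elsewhere in the genome held 32.9% of the combined level of Rpl36a at DIV7 and 46.7% at DIV18. For Rpl36al they held 0.0396% and 0%, so the order of this pair is uncertain. The other paralogues were lower: Rpl22l1 averaged 129 TPM at DIV7 and 24.99 TPM at DIV18, against 389 and 52.7 TPM for Rpl22. Rps27l averaged 78.3 and 27.8 TPM, against 795 and 232 TPM for Rps27. Rpl7l1 averaged 41.1 and 12.7 TPM, against 437 and 129 TPM for Rpl7. The germ-line and muscle forms were close to absent: Rpl39l and Rpl10l had at most 4 and 7 estimated counts in any library and were not tested, and Rpl3l reached at most 39. Rps27rt had 0 estimated counts in 17 of the 24 libraries and at most 37, so no fold change is given for it, although it is among the genes counted as tested. After the filter on low counts, 83 genes were tested at DIV7 and 82 at DIV18.

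For several of these genes the value depended on how reads were divided with near-identical copies elsewhere in the genome. Such copies (at least 95% identity over at least 60% of the transcript) were found for 79 of the 85 genes, 637 in all, of which 628 are annotated as pseudogenes. At DIV7 the copies held more than 50% of the combined level for 7 genes, and at DIV18 for 12. Rps18, near the decoding site of the small subunit, averaged 152 CPM at DIV7 and 3.06 at DIV18, while its copies together went from 0.352 to 95.5 CPM. Rpl3, which lies near the catalytic centre, averaged 344 and 27.3 CPM, and its copies 1.55 and 269 CPM. Rpl5, which binds 5S rRNA, was outweighed by its copies at both ages, at 34.2 against 218 CPM at DIV7 and 13.6 against 146 at DIV18. Rpl12 was likewise outweighed, at 32.4 against 137 CPM and 6.55 against 92.4. The copy Gm15500 (chr7:114705217-114706235, GRCm38, minus strand) carried most of the Rpl5 reads, and Gm10275 (chr10:29698746-29699380, minus strand) those of Rpl12. Levels of these genes are therefore uncertain, and results for them are given with the copies added where that matters.

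**Figure D1:**
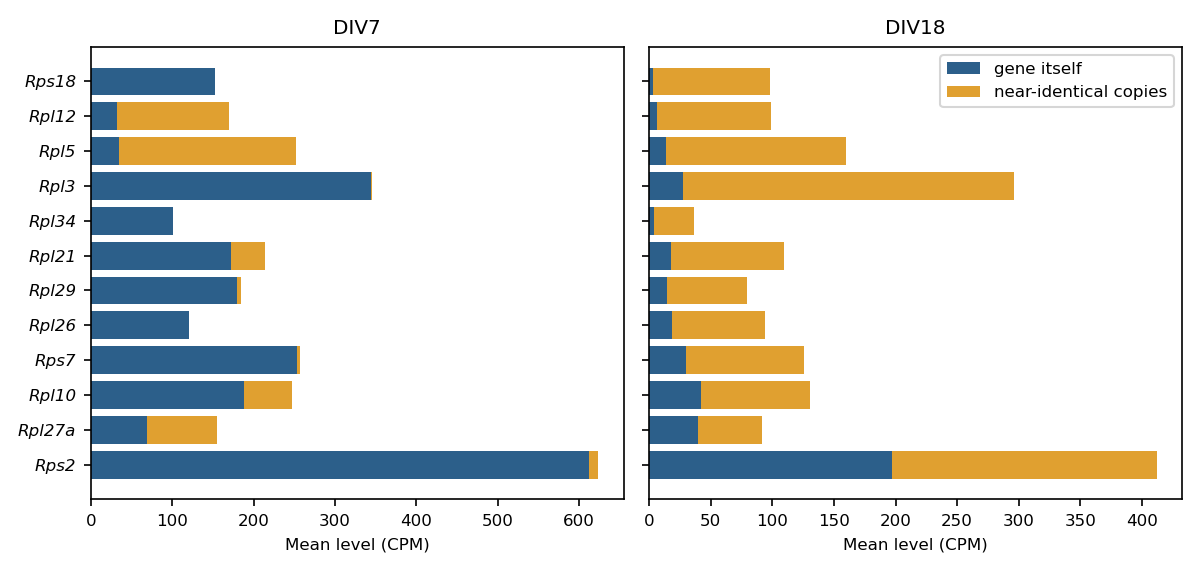
Mean level in CPM (horizontal axis, linear, separate scale for each age) of the 12 genes with the largest share on near-identical copies at DIV18, with the gene itself in blue and its copies in orange. Rps18 and Rpl3 stood almost wholly on the gene at DIV7 and mostly on the copies at DIV18, whereas Rpl5 and Rpl12 stood mostly on copies at both ages.

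The first comparison asked what 30 minutes of depolarization did at DIV7. The family as a whole moved little: its summed level was 12320 and 12669 CPM at rest and 12943 and 13190 after KCl, and the groups did not overlap. Of 83 genes tested, 4 rose and 1 fell (edgeR quasi-likelihood test, Benjamini-Hochberg adjusted p under 0.05), against 17.0% of all 19822 genes called in either direction, 7.34% higher and 9.67% lower. The median log2 fold change was 0.06, with 71 genes higher and 12 lower, and over all genes it was -0.0014. No overlap between the groups was seen for 45 genes in the higher direction and 5 in the lower, where the background was 28.6% and 30.6%. Before adjustment p was under 0.05 for 14 higher and 3 lower, against 14.5% and 17.0%.

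Rpl23, a large-subunit protein, was at 102 and 107 CPM at rest and 122 and 117 after KCl, a log2 fold change of 0.19 ± 0.05 (SE, adjusted p = 0.0439). Rps13 was at 86.4 and 87.8 CPM at rest and 96.7 and 101 after KCl, a log2 fold change of 0.18 ± 0.05 (adjusted p = 0.0468). Rpl10, needed for the subunits to join, was at 176 and 178 CPM at rest and 201 and 196 after KCl, a log2 fold change of 0.16 ± 0.04 (adjusted p = 0.0401). All 3 were higher in both KCl libraries than in either resting one. With near-identical copies added none of them was called: Rpl23 had a log2 fold change of 0.15 (adjusted p = 0.0802), Rpl10 of 0.10 and Rps13 of 0.08. The stalk genes were not called: Rplp0 went from 506 and 503 CPM to 534 and 549. Rps6, the S6 kinase substrate, stood at 141 and 166 CPM at rest and 170 and 163 after KCl, with overlapping groups. Rpl3l, chosen after its values were seen because its mean is under the naming limit of 1 CPM, was at 0.25 and 0.28 CPM at rest and 1.32 and 0.66 after KCl (log2 fold change 1.90 ± 0.49, adjusted p = 0.0395).

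Rpl12, a base protein of the stalk, was the gene that fell. It was at 35.6 and 38.9 CPM at rest and 27.2 and 27.99 after KCl, a log2 fold change of -0.43 ± 0.07 (adjusted p = 0.00984). With near-identical copies added the value was 0.03 (adjusted p = 0.699), so the fall is of the reads assigned to Rpl12 and not of all reads of this sequence. These calls also depended on single libraries: without DIV7 rest replicate 2 no gene of the family was called, without DIV7 rest replicate 1 or DIV7 KCl replicate 1 there was 1, and without DIV7 KCl replicate 2 there were 4. DESeq2 called 1 and edgeR with the replicate number as a block called 19.

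The fall of Rpl12 lay in 1 class of its transcripts. Its retained-intron transcripts, annotated as spliced RNAs that keep an intron, fell from 20.8 and 22.1 CPM to 11.8 and 12.1 (log2 fold change -0.84 ± 0.09, adjusted p = 0.00671, fit over transcript classes added after the data were seen). Its coding class stood at 6.52 and 6.88 CPM at rest and 7.51 and 7.52 after KCl and was not called (adjusted p = 0.466). Nor was its nonsense-mediated decay class (adjusted p = 0.873). The retained-intron share of Rpl12 counts was 58.9% and 57.3% at rest and 42.7% and 42.8% after KCl. These shares are of the reads assigned to Rpl12 and leave out its copies, which held 80.9% of the combined level at DIV7. The largest of these forms, Rpl12-207 (chr2:32961729-32964045, GRCm38, plus strand, 4 exons), went from 535 and 492 estimated counts to 305 and 296.

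Rpl10a, a large-subunit protein of the L1 stalk, also had a class that fell. Its retained-intron transcripts fell from 61.7 and 61.7 CPM to 34.5 and 35.8 (log2 fold change -0.81 ± 0.06, adjusted p = 0.00232), while the gene as a whole was not called (log2 fold change -0.20 ± 0.06, adjusted p = 0.0692). Its nonsense-mediated decay class rose from 25.1 and 25.7 CPM to 33.0 and 37.3 (log2 fold change 0.47 ± 0.09, adjusted p = 0.0251), and its coding class was not called (adjusted p = 0.618). Rps24 went from 12.7 and 12.9 CPM of retained-intron transcripts to 2.57 and 1.22 (log2 fold change -2.74 ± 0.32, adjusted p = 0.00789). Rpl14 went from 5.24 and 5.92 CPM to 1.23 and 1.13, and Rpl5 from 8.00 and 7.45 to 3.13 and 1.90. Rps13 went the other way, from 2.13 and 2.24 CPM to 6.83 and 6.72 (log2 fold change 1.64 ± 0.17, adjusted p = 0.00596).

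Over the family, 15 of 53 retained-intron features fell and 2 rose, against 24.8% and 2.05% of all 6045 such features. The median log2 fold change was -0.62, beside -0.49 over all of them. The family's share was near that of all genes and is not particular to it. Their summed level was 428 and 440 CPM at rest and 356 and 354 after KCl. Coding features of the family rose in 6 of 83 cases (background 7.67%) and fell in none, with 77 of them higher and a median of 0.11 beside 0.05 over all 14775. The 6 were Rpl10, Rpl23, Rpl41, Rpl7a, Rps2 and Rps3, with log2 fold changes of 0.15 to 0.23.

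**Figure D2:**
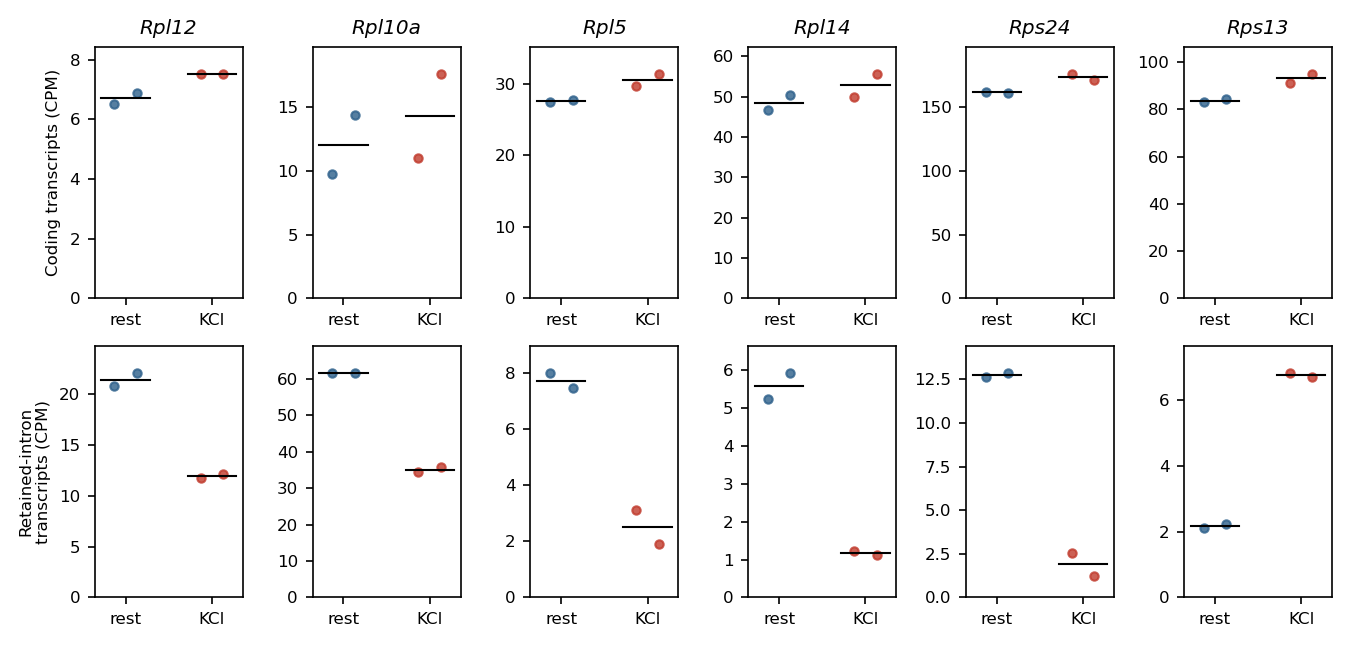
Level in CPM (vertical axis, from 0, separate scale for each panel) of coding transcripts (top row) and retained-intron transcripts (bottom row) of 6 genes in the DIV7 libraries at rest (blue) and after KCl (red), with points for libraries and lines for means of 2. Retained-intron transcripts were lower after KCl for 5 of the genes and higher for Rps13.

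At DIV18 the same treatment gave no call in the family in any of the 3 constructs measured in both states. In NT neurons 0 of 82 genes were called by edgeR or DESeq2, beside 0.00955% of all 20940 genes. The summed level was 7587 and 8639 CPM at rest and 7735 and 7189 after KCl, with overlapping groups. The median log2 fold change was -0.14 (-0.24 without NT rest replicate 1 and -0.031 without NT rest replicate 2), with 74 genes lower, 20 of them without overlap (background 16.8%) and 1 with p under 0.05 before adjustment (1.92%). That 1 was Rpl27, at 31.0 and 38.1 CPM at rest and 28.1 and 23.0 after KCl.

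In vector neurons 0 of 82 were called by either tool, beside 0.0716% of all genes, with a median of 0.02. Before adjustment p was under 0.05 for 4 higher (5.47%) and 4 lower (4.88%), and the groups did not overlap for 4 higher (8.20%) and 3 lower (7.50%). The lowest p values were those of Rpl36al, at 30.4, 29.7 and 31.7 CPM at rest and 24.3, 24.2 and 24.2 after KCl, and of Rpl5, at 14.3, 10.5 and 13.4 and then 9.17, 8.89 and 9.30. Rpl5 went from a log2 fold change of -0.48 to 0.09 with its copies added. With wild-type Smarcc2 0 of 82 were called by either tool, beside 0.0430% of all genes. The median was -0.10 (-0.0039 with library trends on length and GC content removed), with 5 lower with p under 0.05 before adjustment (2.03%). No overlap was seen for 22 lower (10.4%) and 1 higher (11.3%).

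The difference between these responses was tested directly. For vector minus NT, edgeR and DESeq2 called 0 of 82 (0% of all genes), with 9 higher with p under 0.05 before adjustment (4.38%) and a median of 0.14 (0.26 without NT rest replicate 1 and 0.040 without NT rest replicate 2). For wild-type Smarcc2 minus vector both called 0 of 82 (0% of all genes), with 7 lower (1.72%) and 1 higher (1.94%) with p under 0.05 before adjustment and a median of -0.12 (-0.07 with the trends removed).

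**Figure D3:**
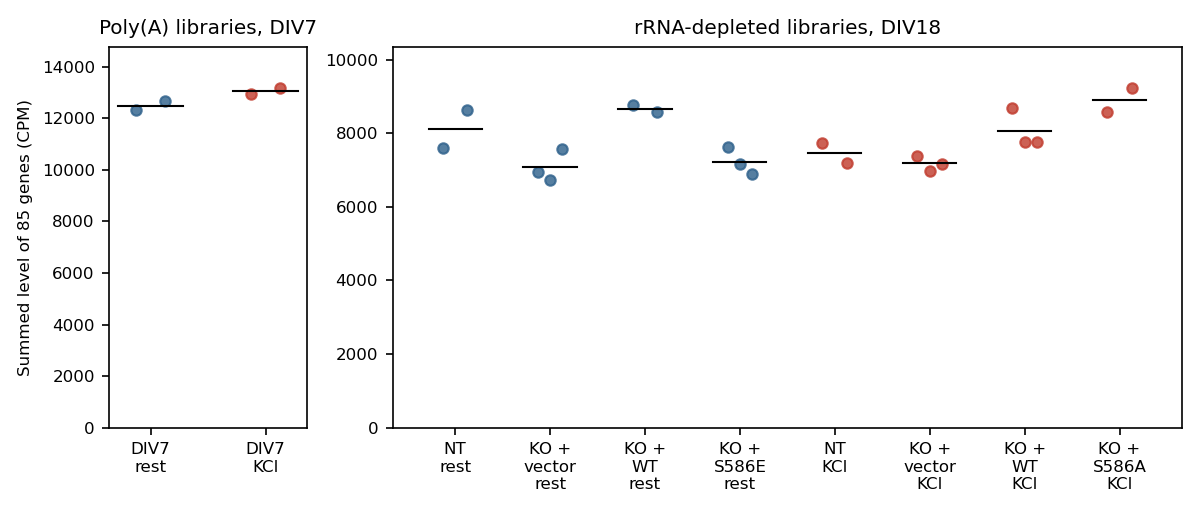
Summed level of the 85 genes in CPM (vertical axis, from 0, separate scale for each library type) in every library, at rest (blue) and after KCl (red), with lines for group means. At DIV18 the resting vector libraries lay between 6743 and 7559 CPM, below both NT libraries, and the wild-type Smarcc2 libraries at rest lay at 8567 and 8764.

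The next comparison set vector neurons, which carry the guide against Smarcc2, beside NT neurons. The labels name a vector for the knockout only, so loss of Smarcc2 and the vector cannot be told apart here. At rest the family stood lower in vector than in NT neurons. The summed level was 7587 and 8639 CPM in NT and 6946, 6743 and 7559 in vector. Of 82 genes 9 fell and none rose, against 5.90% of all genes called in either direction and 3.77% called lower. The median log2 fold change was -0.20, with 74 genes lower, beside 0.02 over all genes. It was -0.31 without NT rest replicate 1 and -0.096 without NT rest replicate 2. In 37 genes every vector library was below every NT library (background 18.2%), and 32 were lower with p under 0.05 before adjustment (11.4%).

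Of the 9 genes, 7 encode large-subunit and 2 small-subunit proteins. Rpl13 was at 157 and 188 CPM in NT and 116, 106 and 142 in vector, a log2 fold change of -0.51 ± 0.11 (SE, adjusted p = 0.00864). Rps26, a protein of the mRNA exit site, was at 84.7 and 106 CPM in NT and 68.6, 65.8 and 65.6 in vector, a log2 fold change of -0.52 ± 0.12 (adjusted p = 0.0197). Rpl18 was at 89.7 and 110 CPM in NT and 70.2, 72.6 and 75.3 in vector, a log2 fold change of -0.46 ± 0.10 (adjusted p = 0.0133). In each of the 3 genes the groups did not overlap.

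Rpl27 was at 31.0 and 38.1 CPM in NT and 23.5, 22.0 and 29.5 in vector, a log2 fold change of -0.47 ± 0.13. Rpl23a, by the nascent chain's exit tunnel, was at 144 and 178 CPM in NT and 130, 115 and 123 in vector, a log2 fold change of -0.40 ± 0.10. Rpl15 was at 137 and 162 CPM in NT and 120, 116 and 110 in vector, a log2 fold change of -0.37 ± 0.09. Rpl11, which with Rpl5 binds 5S rRNA and can restrain Mdm2, was at 106 and 120 CPM in NT and 80.6, 84.4 and 101 in vector, a log2 fold change of -0.35 ± 0.10. Rps20 and Rpl31 had log2 fold changes of -0.34 ± 0.08 and -0.32 ± 0.09. Rpl31, the ninth, lies outside the limit of 8 named genes and was added after its values were seen. No vector library of these 6 genes reached an NT library.

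Other genes of the family had smaller or uncertain differences at rest. Rpsa, a small-subunit protein also known as the laminin receptor, was at 292 and 301 CPM in NT and 334, 256 and 366 in vector, with overlapping groups. Rpl10 had a log2 fold change of -0.62 with an SE of 0.33, since its vector libraries stood at 20.7, 17.0 and 47.3 CPM. Rps19, the gene most often mutated in Diamond-Blackfan anaemia, had a log2 fold change of -0.12 ± 0.10, and Rpl13a of 0.01 ± 0.08. Of the 18 genes listed for that anaemia 6 fell and none rose, with a median of -0.30, beside 9 of 82 in the family and 3.77% of all genes, whose medians were -0.20 and 0.02. The 6 are among the 9 of the family.

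These calls rested on few libraries. Without NT rest replicate 2 there were none, and without vector rest replicate 2 there were 4. With only the NT and vector groups at rest in the fit there were also none, and with near-identical copies added there were 5: Rpl13, Rpl18, Rps26, Rpl23a and Rpl27a. Glial and dividing-cell markers differed between the same libraries. The summed level of 9 astrocyte markers was 1833 and 1653 CPM in NT and 956 to 1408 in vector, with 2 of 9 called lower. Of 9 tested markers of the oligodendrocyte lineage 5 were called lower. Pdgfra had means of 24.98 CPM in NT and 0.66 in vector, and Sox10 was at 0 in all vector libraries at rest. Mbp, the most abundant of these markers, went the other way, with means of 105.6 CPM in NT and 125.8 in vector. The summed level of the list was lower, at 202 and 213 CPM in NT and 135 to 153 in vector. Of 9 proliferation markers 3 were called lower, with Mki67 at 11.8 and 0.90 CPM. The summed level of fibroblast and vessel markers was higher in vector, at 39.0 to 52.4 CPM against 29.3 and 20.4 in NT. Among these, Rgs5 had means of 33.5 CPM in vector and 10.6 in NT. The part of all these cells in the difference of the family was not tested.

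**Figure D4:**
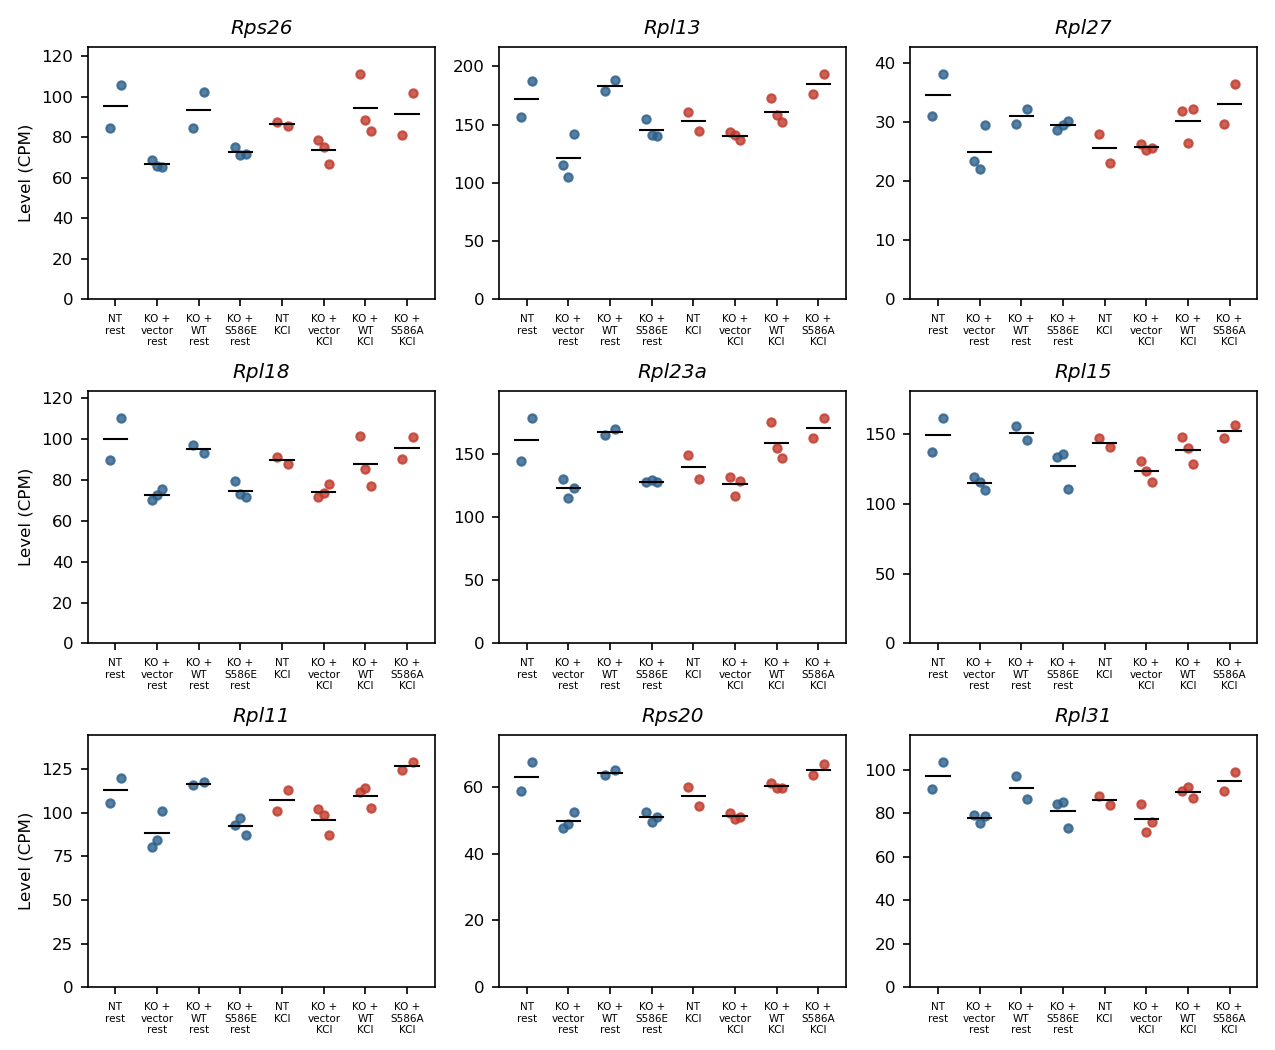
Level in CPM (vertical axis, from 0, separate scale for each panel) of the 9 genes that were lower in vector than in NT neurons at rest, in all DIV18 libraries at rest (blue) and after KCl (red), with lines for group means. In every panel the 3 resting vector libraries lie below both NT libraries at rest.

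After KCl the difference between vector and NT neurons was not called for any of the 82 genes by edgeR, beside 2.67% of all genes. DESeq2 called 1 (share of all genes not given). The median was -0.06, with 8 genes lower with p under 0.05 before adjustment (9.58%). The groups did not overlap for 21 lower (18.5%) and 5 higher (17.3%). The summed level was 7735 and 7189 CPM in NT and 7375, 6986 and 7173 in vector. The astrocyte marker sum was lower in vector in this state too, at 855, 941 and 973 CPM against 1468 and 2024 in NT. The oligodendrocyte lineage sums overlapped, at 115, 134 and 119 CPM in vector and 132 and 216 in NT. The part of these cells was not tested. Rpl13 had a log2 fold change of -0.12 ± 0.11 and Rps26 of -0.23 ± 0.13. The lowest p values were those of Rpl5 (log2 fold change -0.58 ± 0.16, adjusted p = 0.0530) and Rps15a (-0.35 ± 0.11, adjusted p = 0.0907), and with copies added the value of Rpl5 was 0.05. With the replicate block 2 genes were called lower.

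Adding back wild-type Smarcc2 was compared with vector in both states. At rest 0 of 82 genes were called by edgeR, beside 0.0143% of all genes. DESeq2 called 14, all higher (share of all genes not given). The family stood higher in CPM nonetheless, with 81 of 82 genes at a positive log2 fold change. The median was 0.31, beside -0.01 over all genes, and 59 were higher with p under 0.05 before adjustment (background 5.87%). In 62 genes both wild-type libraries were above all 3 vector libraries (13.7%), and in 1 they were below (12.4%). With library trends on transcript length and GC content removed the median was 0.19. As a share of summed TPM the groups overlapped. The family stood at 1.08% and 1.40% with wild-type Smarcc2, and the vector libraries lay between these at 1.14%, 1.11% and 1.18%.

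Rpl13 had the lowest p, at 179 and 188 CPM with wild-type Smarcc2 against 116, 106 and 142 in vector, a log2 fold change of 0.60 ± 0.11 (adjusted p = 0.0572). Rps20 was at 63.5 and 64.9 CPM against 47.7, 49.0 and 52.3, a log2 fold change of 0.37 ± 0.08 (adjusted p = 0.105). Without vector rest replicate 3 there were 3 calls, and with the replicate block 2. This comparison and that of vector with NT share the 3 resting vector libraries, so their opposite directions are not independent. Rps26 stood at 84.7 and 102 CPM with wild-type Smarcc2, Rpl18 at 97.2 and 93.1, and Rpl23a at 165 and 169, all above the vector libraries. The wild-type and NT libraries share none with each other: there the median was 0.10 (-0.02 with the trends removed, -0.0070 without NT rest replicate 1 and 0.21 without NT rest replicate 2) and edgeR and DESeq2 called 0 of 82 genes, beside 0.105% of all genes. In that comparison 3 genes were higher with p under 0.05 before adjustment (3.32%) and 24 did not overlap in the higher direction (19.5%). The astrocyte marker sum was lower there, at 1258 and 1077 CPM with wild-type Smarcc2 against 1833 and 1653 in NT. Markers of other cells moved with the family against vector, none of them called. Of 9 astrocyte markers 6 were higher (median log2 fold change 0.45), such as Aldoc with means of 163 CPM against 101, whereas Slc1a2, the most abundant, had 733 against 822, so that their sum of 1258 and 1077 CPM lay inside the vector range. All 4 tested microglia markers (median 0.82) and 8 of 9 proliferation markers (median 0.39) were higher. The part of these cells in the difference of the family was not tested.

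After KCl, wild-type Smarcc2 against vector gave 0 calls of 82 by edgeR and by DESeq2, beside 0.00955% of all genes. The median was 0.17, with 80 genes higher, 26 of them with p under 0.05 before adjustment (2.19%) and 31 without overlap (5.01%). As a share of summed TPM the groups overlapped, at 1.58%, 1.28% and 1.32% with wild-type Smarcc2 and 1.33%, 1.18% and 1.31% in vector. Astrocyte markers were higher in 9 of 9 cases (median 0.38), oligodendrocyte lineage markers in 7 of 9 (median 0.83) and proliferation markers in 8 of 9 (median 0.57), none of them called. Their part in the difference was not tested. Rpl5 had the lowest p, at 11.9, 13.5 and 16.0 CPM against 9.17, 8.89 and 9.30. Against NT after KCl the median was 0.11 (0.05 with the trends removed). There were 0 calls of 82 by edgeR, beside 0.201% of all genes, and 1 by DESeq2 (share of all genes not given). There 9 genes were higher with p under 0.05 before adjustment (4.53%), 23 did not overlap in the higher direction (13.9%) and 1 in the lower (14.4%).

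The S586E form at rest gave values near those of the vector. Against vector 0 of 82 genes were called by either tool, beside 0.0191% of all genes, and the median was 0.02. Before adjustment p was under 0.05 for 4 higher (4.27%) and 2 lower (3.18%), and the groups did not overlap for 2 higher (5.60%) and 4 lower (5.46%). The summed level was 7621, 7169 and 6904 CPM with S586E. Rpl13 was at 155, 141 and 140 CPM, and Rps20 at 52.4, 49.4 and 50.9; the highest Rpl13 value lay above the vector range and the others overlapped it or lay at its edge. A missed threshold in groups of 3 does not show that the forms act alike.

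The S586E and wild-type forms were compared directly at rest. By edgeR 0 of 82 genes were called, beside 0% of all genes. DESeq2 called 17, all lower with S586E (share of all genes not given). The median was -0.28, with 78 genes lower, 55 of them with p under 0.05 before adjustment (6.62%) and 64 without overlap (16.4%). Rpl39, a small protein of the exit tunnel, was at 45.1, 46.5 and 39.8 CPM with S586E and 62.6 and 65.5 with the wild-type form, a log2 fold change of -0.55 ± 0.11 (adjusted p = 0.103). Rpl17 was at 89.3, 83.3 and 81.9 CPM against 118 and 112, a log2 fold change of -0.44 ± 0.09 (adjusted p = 0.103). With length and GC trends removed the median was -0.17. Astrocyte (6 of 9), oligodendrocyte lineage (5 of 9) and proliferation markers (6 of 9) were more often lower than higher, with medians of -0.12, -0.53 and -0.20 and none called. The summed astrocyte markers went the other way, at 1420, 1307 and 1373 CPM with S586E against 1258 and 1077 with the wild-type form. So did the oligodendrocyte lineage sum, at 162, 151 and 142 CPM against 137 and 111. The proliferation sum was lower, at 29.1, 27.6 and 32.9 CPM against 35.7 and 33.2. The part of these cells was not tested. Smarcc2 RNA was itself higher with S586E than with the wild-type form, and the part of that difference was not tested.

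In CPM the family stood higher with S586A than with vector after KCl. By edgeR 0 of 82 genes were called, beside 0.00955% of all genes. DESeq2 called 23, all higher (share of all genes not given). The median was 0.31, with 81 genes higher, 62 with p under 0.05 before adjustment (6.90%) and 72 without overlap (16.0%). The summed level was 8589 and 9236 CPM with S586A against 7375, 6986 and 7173 in vector. As a share of summed TPM the groups overlapped, at 1.25% and 1.28% with S586A and 1.33%, 1.18% and 1.31% in vector. The cause of this difference between CPM and TPM was not tested. The astrocyte marker sum was likewise higher, at 1167 and 1032 CPM against 855, 941 and 973 without overlap, with 9 of 9 markers higher (median 0.48) and none called. Among them Aqp4 had means of 11.7 and 1.76 CPM and Gfap of 93.4 and 51.3. Their part in the difference of the family was not tested. Rpl5 was at 15.2 and 17.2 CPM with S586A, a log2 fold change of 0.83 ± 0.16 (adjusted p = 0.0881), which became 0.30 with its copies added. Rps3, at the mRNA entry channel, was at 177 and 184 CPM against 138, 122 and 129, a log2 fold change of 0.48 ± 0.09 (adjusted p = 0.0881). With length and GC trends removed the median was 0.14.

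Against the wild-type form after KCl, S586A gave 0 calls of 82 by either tool, beside 0% of all genes. The median was 0.13 (0.03 with the trends removed), with 13 genes higher with p under 0.05 before adjustment (4.20%) and 30 without overlap (11.9%). By share of summed TPM the family was not higher, at 1.25% and 1.28% with S586A and 1.58%, 1.28% and 1.32% with the wild-type form. Rps3 had the lowest p, with a log2 fold change of 0.33 ± 0.09 (adjusted p = 0.369). Smarcc2 RNA was higher with S586A than with the wild-type form here too.

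**Figure D5:**
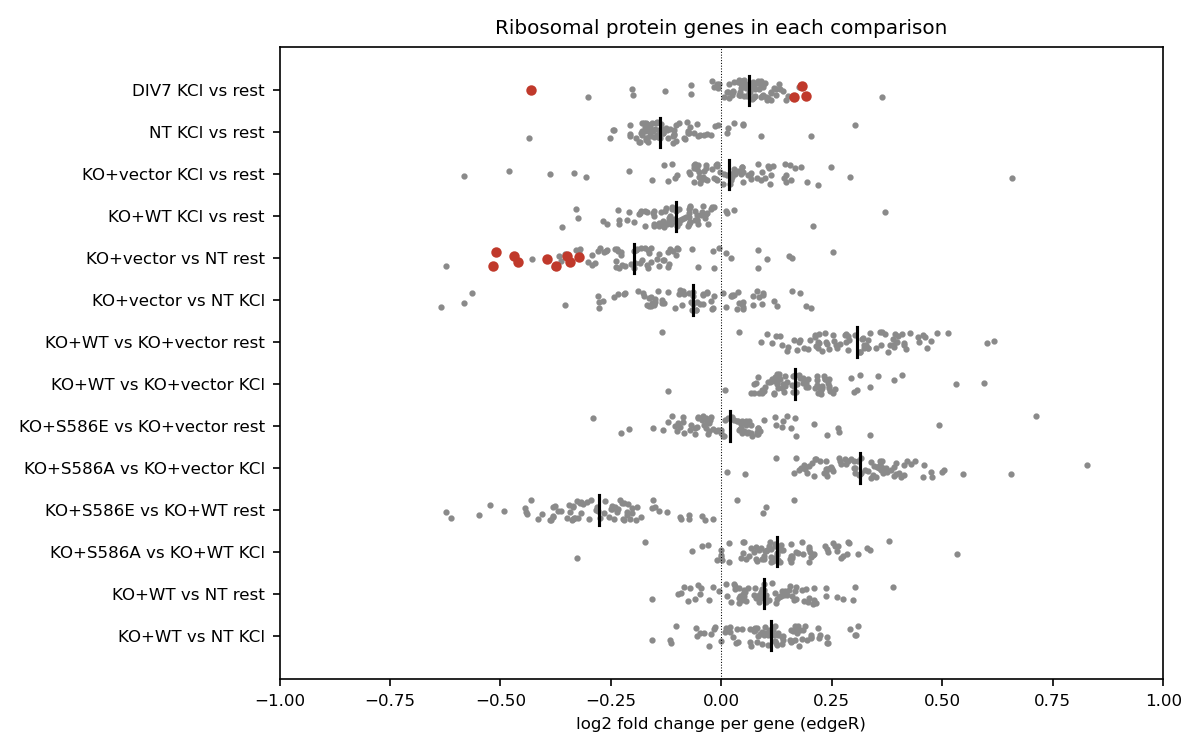
Log2 fold change of each gene (horizontal axis) in the 14 comparisons of a pair of groups, with called genes in red, others in grey and the median as a black line; 11 values beyond 1 on the log2 scale, Rpl3l at DIV7 and Rps27rt at DIV18, are outside the axis. The medians of wild-type Smarcc2 at rest and of S586A after KCl, each against vector, both stood at 0.31.

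Ribosomal proteins with other gene names were looked at too, and the genes of Rack1 and Fau are described here. At rest in vector against NT, Rack1, a scaffold on the small subunit, had a log2 fold change of -0.34 ± 0.10 (adjusted p = 0.0570). Fau, a fusion with Rps30, had -0.23 ± 0.10. Neither was called in this comparison or at DIV7.

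The counts of related genes at DIV7 stand beside 7.34% of all genes called higher and 9.67% called lower. In a list of 37 genes, most of them translation factors, 7 rose after KCl and none fell, with a median of 0.08. The largest rises were those of Nap1l1, a histone chaperone (log2 fold change 0.28 ± 0.04), Tpt1 (0.23 ± 0.04), neither of them a translation factor in the strict sense, Eif2s2, a subunit of initiation factor eIF2 (0.22 ± 0.05), and Eif5a (0.20 ± 0.04). Of 52 ribosome biogenesis genes 7 rose and 9 fell, with a median of -0.07. Ddx10 had a log2 fold change of 0.51 ± 0.07, Nolc1 of 0.36 ± 0.06, Myc of -1.28 ± 0.09 and Riok1 of -0.54 ± 0.11. Of 16 mTOR pathway genes 2 rose and 1 fell, and of 9 snoRNA host genes 1 rose and 2 fell. Mitochondrial ribosomal protein genes fell in 4 of 78 cases and rose in none, a share below that of all genes, with a median of -0.06, and Mrpl44 had a log2 fold change of -0.57 ± 0.10.

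In vector against NT neurons at rest, 2 of the 37 genes in the translation list fell and none rose, where 3.77% of all genes were called lower. Pabpc1, the poly(A)-binding protein, had a log2 fold change of -0.45 ± 0.11 and Eif3h of -0.34 ± 0.08, and the list's median was -0.10. Of the ribosome biogenesis genes 1 of 52 fell, a share below that of all genes: Nhp2, with a log2 fold change of -0.52 ± 0.13. No mitochondrial ribosomal protein gene of 78 was called, and their median was -0.02. For wild-type Smarcc2 against vector at rest the same lists had medians of 0.12, 0.07 and 0.09, with no call.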

How the data were processed

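The authors quantified each library with kallisto after FastQC and cutadapt, per the submitters' processing notes. The deposited tables give each transcript's length, estimated count and TPM, per the file headers; versions and annotation are not given in the sources used here. Of 142552 transcripts, 99.2% matched GENCODE M21 (GRCm38). Deposited estimated counts were summed per gene, rounded, and tested with edgeR 4.0.16 (R 4.3.3) by its quasi-likelihood test after filterByExpr, with TMM scaling and Benjamini-Hochberg adjustment over all genes tested, separately for the 4 DIV7 libraries (2 residual degrees of freedom) and the 20 DIV18 libraries (12, with 1 shared estimate of the spread). Deposited TPM values served for levels per length. Near-identical copies were found with blastn 2.17.0. The scripts were tested on simulated data. The 16 comparisons comprise 14 between a pair of groups and 2 of responses.

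The members and lists were chosen with earlier results of these data known. Named were up to 8 called genes in each direction with a mean of at least 1 CPM, fixed genes and paralogues, called list genes, and, where none was called, the 2 lowest p values. Alternatives were other scaling, DESeq2 1.42.0, no filter, offsets, blocks, added pseudogenes or copies, and left-out libraries. Shares of all genes called come from the edgeR fits, and none is given for DESeq2 or the other alternatives. The main fits used group means only and did not pair libraries. The replicate number entered only in the block alternatives, where it applied to all groups. Same-numbered vector libraries at rest and after KCl deviated together (correlations of 0.161, 0.131 and 0.328), although rest replicate 1 and KCl replicate 2 also correlated (0.205). The other groups have 2 pairs, with correlations of 0.101 at DIV7, -0.121 in NT and -0.105 with wild-type Smarcc2, and share only a number.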

Additional observations from a re-analysis of the deposited data

How the results depend on the processing

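At DIV7 the count of 5 called genes was 1 with DESeq2, 3 with effective-length offsets, 8 with length and GC trend offsets, 3 with named pseudogenes added, 1 with near-identical copies added and 19 with the replicate block; without single replicates it ranged from 0 to 4. For vector against NT at rest the count of 9 was 5 with near-identical copies added, 16 with no low-count filter and 0 with only the groups compared, and 0 to 11 without single replicates; the replicate block gave 10. After KCl it went from 0 to 1 with DESeq2, 2 with trend offsets, 3 with no filter, 1 with only the groups compared and 2 with the replicate block. Wild-type Smarcc2 against vector at rest went from 0 to 14 with DESeq2, 26 with no filter and 2 with the replicate block, and 0 to 3 without single replicates. S586E against the wild-type form went from 0 to 17 with DESeq2, 20 with no filter, 2 with only the groups compared and 2 with the replicate block. S586A against vector went from 0 to 23 with DESeq2 and 23 with no filter. With no filter, 2 genes were called for wild-type Smarcc2 against vector after KCl, 2 for S586E against vector, and 1 each for S586A against the wild-type form, KCl in vector and the response of wild-type Smarcc2 minus vector. Wild-type Smarcc2 against NT after KCl had 1 with DESeq2. The cause of these changes was not tested. The replicate block changed no other count by over 1.5 times, and the crossed block in NT, added after the data were seen, gave 0.

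With near-identical copies added, values changed sign for Rpl12 (0.031) and Rpl5 (0.0562) at DIV7, for Rpl5 after KCl in vector (0.0861) and in vector against NT after KCl (0.0475), and for Rps7 in S586E against vector (-0.012). In vector against NT after KCl, Rps15a became 0.13 with effective-length offsets. Rpl27 there, 0.01 at first, became -0.0841 with named pseudogenes added, -0.13 with copies added, -0.0024 with no filter and -0.0337 with the replicate block, and ranged from -0.13 to 0.16 without single replicates. Rpl27 in S586E against the wild-type form became 0.0543 with trend offsets. Groups of 2 or 3 libraries limit all of these comparisons, and genes that share reads with copies are limited by the division of reads. Without single replicates the median log2 fold change of the family also moved by over 1.5 times for KCl with wild-type Smarcc2 (-0.16 to -0.08), vector against NT after KCl (-0.10 to -0.01), wild-type Smarcc2 against NT after KCl (0.05 to 0.15), S586A against the wild-type form (0.10 to 0.19), KCl at DIV7 (0.03 to 0.08) and the response of wild-type Smarcc2 minus vector (-0.19 to -0.09), and changed sign for KCl in vector (-0.01 to 0.05) and S586E against vector (-0.01 to 0.06).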
